A study of Mus musculus with 6 samples.

Results

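The interferon response and class I antigen presentation genes were examined as a group of 53 genes, listed by name from what they are known to do, with earlier results of these data known. Of these, 50 of the 19935 genes on the array table had a probe set with exactly 1 gene symbol, and the brightest such probe set over all arrays stood for the gene. Gbp2, Isg15 and Ifi44 had none and were not analysed here. The samples were osteoblastic cells of male mice deficient in the Y1 receptor for neuropeptide Y (Y1KO, 2 arrays) and of wild-type mice (WT, 4 arrays), compared to learn what loss of the receptor changes in these cells. Mice of both genotypes carried green fluorescent protein under a 3.6-kb piece of the rat alpha1(I)-collagen promoter, which is active in the osteoblast lineage. Stromal cells of the marrow of femora and tibias were grown for 7 days in control medium, and fluorescent cells were sorted for total RNA. The sources used here do not give strain, age or the kind of Y1 deletion. Nor do they say whether 1 array is 1 mouse, and the tests therefore weigh differences against the spread of these arrays, which may be technical.

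Interferons are secreted proteins that warn cells of infection. Type I interferons bind the Ifnar1 and Ifnar2 receptor chains, whose kinases activate Stat2. Stat2 acts with Irf9 at the interferon-stimulated response element (ISRE) of target genes, while interferon gamma acts mainly at the gamma-activated site (GAS). The targets block viral replication and also supply the class I presentation route, in which the immunoproteasome cuts proteins to peptides, Tap1 and Tap2 carry the peptides into the endoplasmic reticulum, and tapasin (Tapbp) loads them on class I molecules with their light chain, B2m. Many of these genes are transcribed at a low level in unstimulated cells. In bone, interferons are known to restrain osteoclast formation.

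The RefSeq table of mouse promoters (build GRCm38.p6) held 38 of the 50 measured genes. It held no entry for Dhx58, Zbp1, Nlrc5, Oas2, Mx1, Mx2, Usp18, Parp9, Parp14, Rtp4, Ifi27l2a or Tap2. The 250 bases before each start were searched on both strands for the ISRE core, read here as GAAA, any 2 bases and GAAA, and for the GAS element, read as TTC, any 3 bases and GAA, which is its own reverse complement. The ISRE core was present for 9 of the 38 (23.7%), against 3.46% of the 27025 genes of the table, and the GAS element for 9 of the 38 (23.7%), against 8.13%. Of these 38 genes, 13 fell in Y1KO, as described below, and 3 of the 13 had the ISRE core (23.1%) and 5 the GAS element (38.5%). Among the 25 of the 38 that did not pass the test, 6 had the ISRE core (24.0%) and 4 the GAS element (16.0%). A match is a stretch of letters and not a shown binding site. The windows below belong to the 6 genes of smallest p among those that fell and held a match, printed 5′ to 3′ on the gene's strand with the matching letters in capitals.
Psmb8, chr17:34198078-34198126, plus strand, GAS element: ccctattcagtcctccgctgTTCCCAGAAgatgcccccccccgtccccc
Samhd1, chr2:157135303-157135346, minus strand, GAS element: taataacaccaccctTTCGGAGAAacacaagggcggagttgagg
Stat2, chr10:128270256-128270305, plus strand, ISRE core read on the other strand: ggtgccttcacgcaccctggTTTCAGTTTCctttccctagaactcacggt
Ifit2, chr19:34550444-34550481, plus strand, GAS element: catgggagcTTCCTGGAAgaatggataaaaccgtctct
Bst2, chr8:71537567-71537628, minus strand, GAS element overlapping the first of 2 ISRE cores, which overlap each other: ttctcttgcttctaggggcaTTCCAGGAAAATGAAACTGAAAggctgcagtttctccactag
Gbp3, chr3:142559979-142560034, plus strand, 2 overlapping ISRE cores on the other strand: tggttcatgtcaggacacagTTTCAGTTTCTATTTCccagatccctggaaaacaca

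Psmb9 and Tap1, which both fell, are read away from each other from starts 226 bases apart on chromosome 17. They share the stretch between the starts, which is shown because both genes lie under it. It held neither the ISRE core nor the GAS element in these letters.
Psmb9-Tap1, chr17:34187331-34187555, plus strand: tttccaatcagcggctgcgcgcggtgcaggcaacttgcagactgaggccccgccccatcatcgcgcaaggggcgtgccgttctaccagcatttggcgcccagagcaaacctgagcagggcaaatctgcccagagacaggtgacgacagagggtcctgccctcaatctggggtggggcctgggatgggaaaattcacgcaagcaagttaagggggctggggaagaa

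All values are deposited log2 expression values. The array medians lay between 5.30 and 5.37, and array correlations over all genes were 0.9961 between the Y1KO arrays and 0.9911 to 0.9958 among the WT arrays, against 0.9762 to 0.9875 across genotypes. The targeted gene, Npy1r, was too dim to check the labels, at 2.89 and 2.83 in Y1KO and 3.11, 2.84, 2.78 and 3.00 in WT (limma adjusted p = 0.768). All 8 measured osteoblast markers lay above the median of all genes, with Col1a1 at 13.62 and 13.58 in Y1KO and 13.35 to 13.46 in WT. So did 11 of 12 smooth muscle and pericyte markers, so this level did not set osteoblasts apart from those cells. Of the 14 macrophage markers 4 lay above that median, and none of the 9 lymphocyte and 8 granulocyte markers did.

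Part of the interferon and class I genes fell in Y1KO cells and none rose. By limma, with p-values adjusted over all genes and a gene called at an adjusted p under 0.05, 17 of the 50 fell, a share of 34%, where 6.64% of all genes fell. No gene of the 50 rose, where 6.1% of all genes did, and 2 of the 50 were higher at an unadjusted p under 0.05. The median difference, Y1KO minus WT, was -0.45 on the log2 scale over the 50 genes and 0.01 over all genes. The difference was negative for 46 of the 50 (47 with quantile normalization and 44 with centred arrays) and for 48.4% of all genes. The 17 decreases were small, from 1.3-fold for Tapbp to 2.25-fold for Gbp3. Both Y1KO arrays lay below every WT array in 29 of the 50 genes, against 17.3% of all genes, and above every WT array in 1, against 17.5%. The plot of differences by role shows that the decreases were spread over every block. The count rested on both Y1KO arrays: 7 genes fell without Y1KO replicate 1, where 2.87% of all genes fell, and 4 without Y1KO replicate 2, where 1.68% did. Ifit2, Samhd1, Parp9, Psmb8, Psme1 and Tap2 kept their calls without Y1KO replicate 1, where Dtx3l gained one, and Stat2, Psmb8, Psme1 and Tap2 kept theirs without Y1KO replicate 2. In both cases 1 Y1KO array was left, the spread came from the WT arrays alone, and the lone array was assumed to vary like them. Without moderation of the variance, 1 of the 50 fell, Tap2, where 1.02% of all genes fell. In bulk RNA, less RNA per cell and fewer cells that carry it cannot be told apart.

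**Figure D1:**
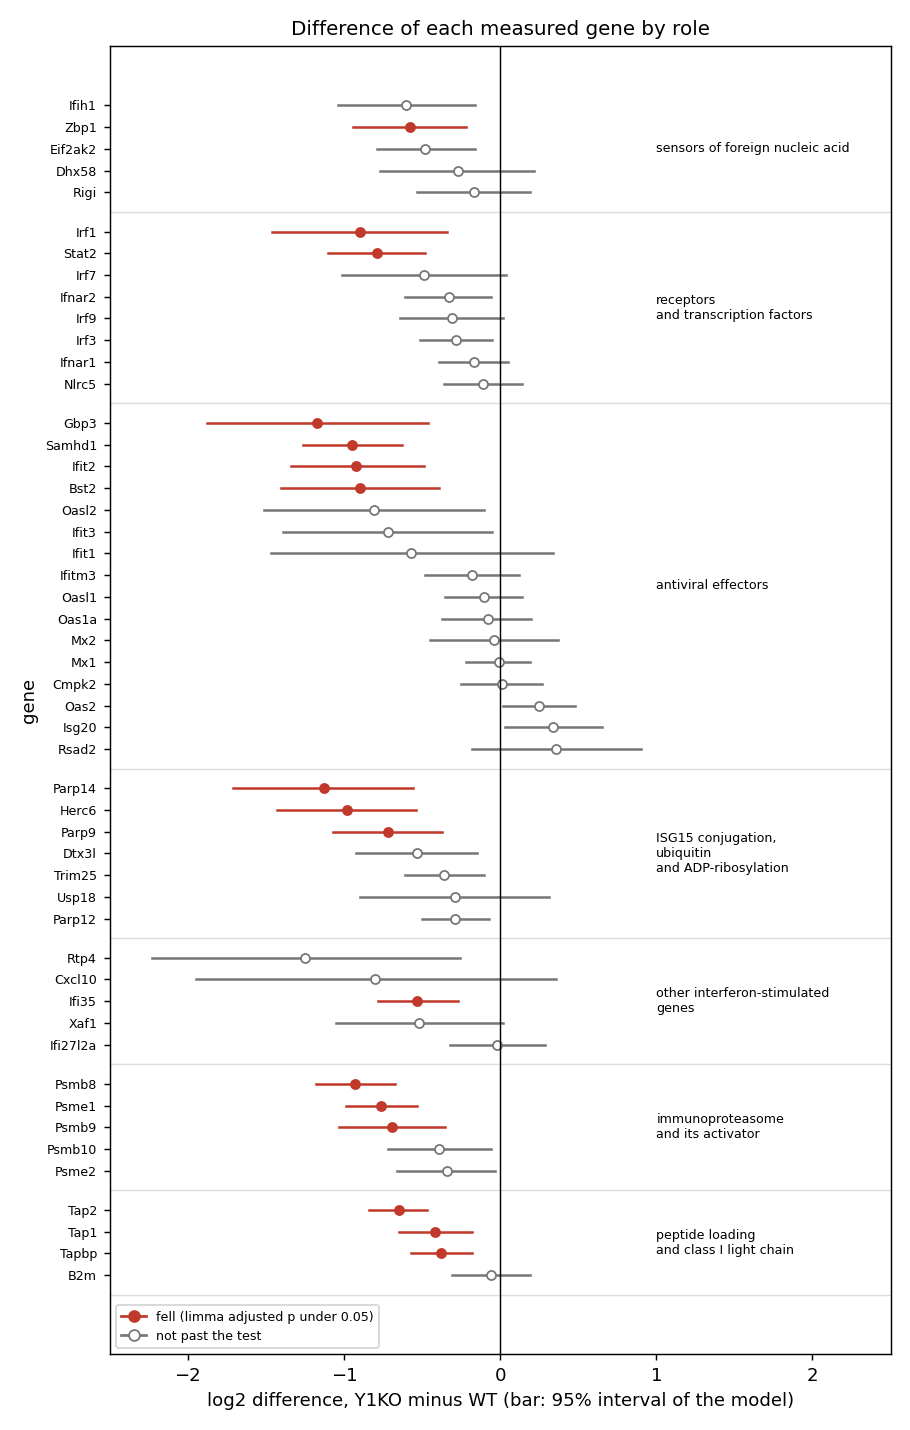
Log2 difference, Y1KO minus WT, of each of the 50 measured genes (points) with the 95% interval of the linear model (bars), in blocks by role. Filled red points are the 17 genes that fell, and open grey points did not pass the test. Of the 4 points right of 0, none is filled.

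Of the 9 genes that prepare peptides for class I presentation, 6 fell, where 6.64% of all genes fell. In all but B2m both Y1KO arrays lay below every WT array, against 17.3% of all genes. Psmb8, a catalytic subunit that interferon puts into the proteasome, stood at 7.57 and 7.25 in Y1KO, against 8.30, 8.31, 8.44 and 8.29 in WT. It fell 1.90-fold, by 0.93 on the log2 scale (SE 0.11), with the smallest p of the 50 genes (limma adjusted p = 0.00165). Psmb9, a second such subunit, stood at 7.35 and 7.21 in Y1KO, against 7.94, 7.71, 8.29 and 7.93 in WT, and fell by 0.69 (SE 0.15, limma adjusted p = 0.0181). Psme1, the alpha subunit of the PA28 cap that speeds peptide release, stood at 8.04 and 8.16 in Y1KO, against 8.77, 8.87, 9.01 and 8.79 in WT, and fell by 0.76 (SE 0.10, limma adjusted p = 0.00231). In these 3 genes every Y1KO array lay clear of the WT arrays. The third catalytic subunit Psmb10 and the PA28 beta subunit Psme2 had differences of -0.39 and -0.34 that did not pass (limma adjusted p = 0.132 and 0.155), although the arrays did not overlap there either. The constitutive proteasome, which the immunoproteasome subunits partly replace, gave no decrease that passed the test. Of 16 measured subunit and activator genes 0 fell, Psme4, an activator, rose by 0.52 (limma adjusted p = 0.00627), and the median difference was 0.09. At an unadjusted p under 0.05, 0 of the 16 were lower and 2 were higher, and 14 of the 16 differences were positive. Both Y1KO arrays lay above every WT array in 4 of the 16, against 17.5% of all genes. Psmb5, Psmb6 and Psmb7, the subunits that Psmb8, Psmb9 and Psmb10 replace in that order, had differences of 0.13, 0.28 and 0.03 (limma adjusted p = 0.506, 0.102 and 0.882).

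Tap2, a chain of the peptide transporter, stood at 6.82 and 6.86 in Y1KO, against 7.52, 7.53, 7.46 and 7.47 in WT. The WT arrays lay close together, and the gene fell by 0.65 (SE 0.08, limma adjusted p = 0.00207). Tap1, its partner chain, stood at 7.36 and 7.15 in Y1KO, against 7.74, 7.62, 7.55 and 7.77 in WT, and fell by 0.42 (SE 0.10, limma adjusted p = 0.0331). Tapbp, the tapasin gene, stood at 8.48 and 8.51 in Y1KO, against 8.88, 8.83, 8.95 and 8.83 in WT, and fell by 0.38 (SE 0.09, limma adjusted p = 0.0214). B2m, the light chain, was among the brightest genes on the array and its groups overlapped, at 12.35 and 12.39 in Y1KO and 12.35, 12.26, 12.55 and 12.56 in WT, a difference of -0.06 (95% interval -0.31 to 0.19, limma adjusted p = 0.813). Of 8 measured genes of class I heavy chains and peptide processing outside the 50, 2 fell (25%, where 6.64% of all genes fell) and 0 rose. H2-Q4, a heavy chain with near-identical relatives whose RNA its probes may also bind, fell by 0.69 (limma adjusted p = 0.00906), and Erap1, which trims peptides, fell by 0.64 (limma adjusted p = 0.0403). The classical heavy chains H2-K1 and H2-D1 share their probe sets with each other and were not analysed here. Tap2 kept its call in all 15 other settings tried, and Psmb8 and Psme1 in all but the one without moderation of the variance. Tap1 was less stable and lost its call in 7 of them.

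**Figure D2:**
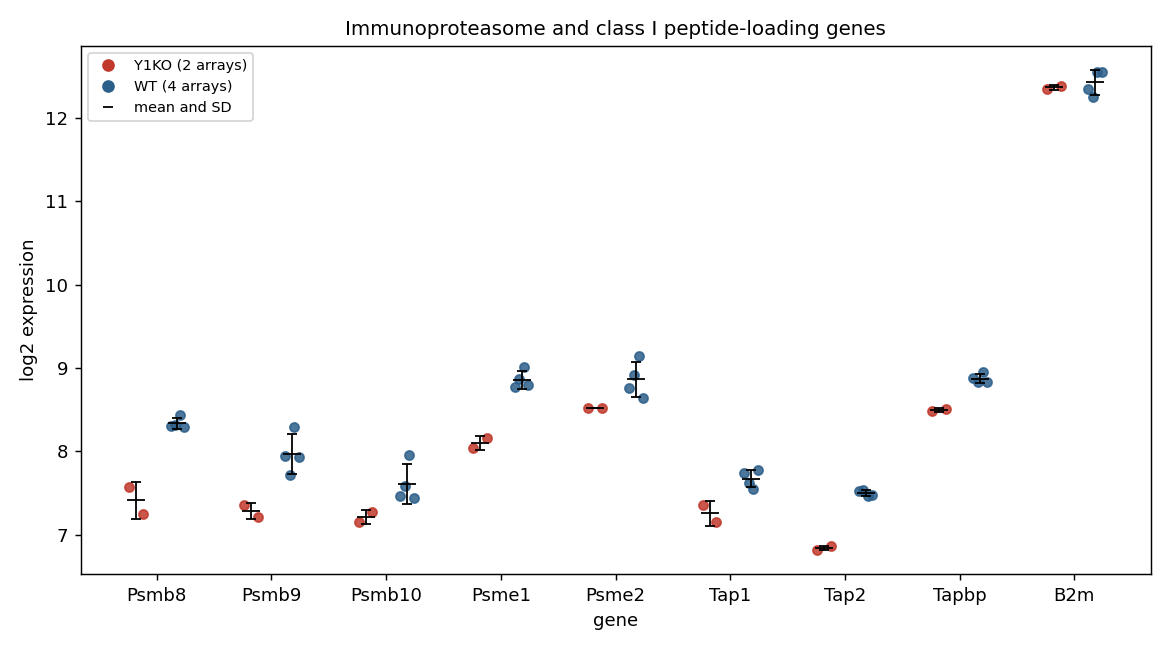
Log2 expression of the immunoproteasome, PA28 and peptide-loading genes in each array (points), with the mean and SD of each group (black bars), Y1KO left of WT. In each gene except B2m both Y1KO points lie below all 4 WT points.

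Nlrc5, the coactivator that drives class I gene transcription, gave different answers by probe set. Its brightest probe set stood at 8.82 and 8.73 in Y1KO, against 8.74, 8.93, 8.82 and 9.06 in WT, a difference of -0.11 (limma adjusted p = 0.627). The gene has 19 probe sets on this array, and 17 of them fell when every probe set was a unit of the fit, which was chosen after seeing the data. Their differences ran from -1.49 to -0.11, and in 18 of the 19 both Y1KO arrays lay below every WT array. The second brightest stood at 7.33 and 6.84 in Y1KO, against 8.65, 8.50, 8.41 and 8.56 in WT. The median over the 19 probe sets was 6.51 and 6.16 in the Y1KO arrays and 7.36, 7.30, 7.21 and 7.37 in the WT arrays. With the mean of its probe sets, Nlrc5 fell, by 0.97, and the count for the 50 genes stayed at 17, since Irf1 lost its call in that setting.

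**Figure D3:**
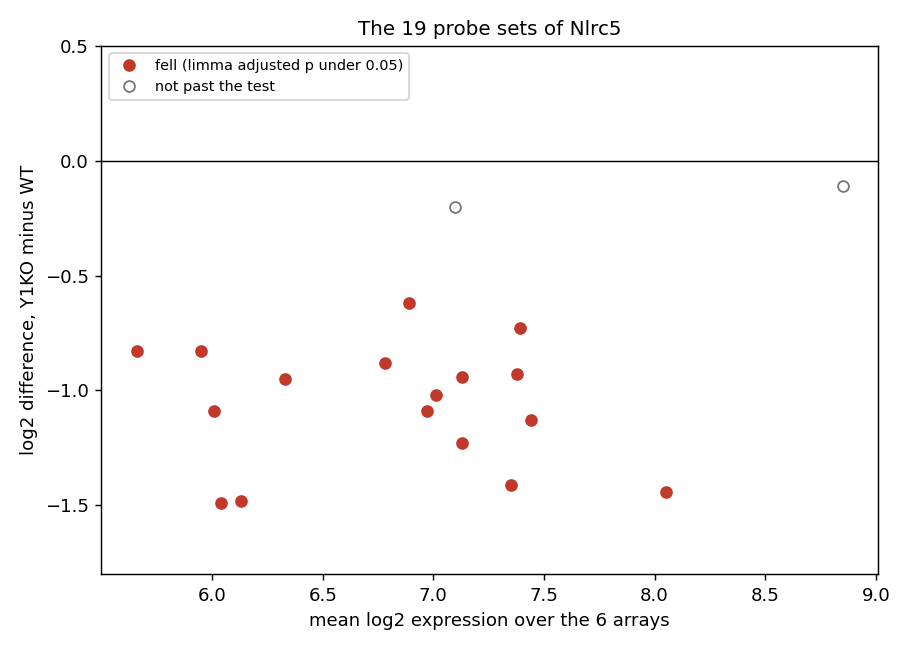
Log2 difference, Y1KO minus WT, of the 19 probe sets of Nlrc5 against their mean log2 expression over the 6 arrays. The 17 filled points fell, and the brightest probe set, at the right, is 1 of the 2 that did not pass.

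Of the 8 receptor and transcription factor genes, 2 fell (25%, where 6.64% of all genes fell), and all 8 differences were negative. Stat2, the partner of Irf9 in the ISRE-binding complex, stood at 6.61 and 6.88 in Y1KO, against 7.51, 7.76, 7.31 and 7.55 in WT, and fell by 0.79 (SE 0.14, limma adjusted p = 0.00707). Irf1, a factor that interferon gamma induces and that acts on class I genes, stood at 6.24 and 6.46 in Y1KO, against 6.86, 7.23, 7.89 and 7.04 in WT. It fell by 0.90 (SE 0.25, limma adjusted p = 0.0456), lost its call in 9 settings, and its second, dimmer probe set had a difference of 0.07. The type I receptor chains Ifnar1 and Ifnar2 had differences of -0.17 and -0.33 (limma adjusted p = 0.343 and 0.117). Irf9 stood at 6.86 and 6.78 in Y1KO, against 6.98, 7.44, 7.18 and 6.91 in WT, without passing the test (-0.31, limma adjusted p = 0.24). Irf3, which virus sensors activate, and Irf7, which amplifies type I interferon production, had differences of -0.28 and -0.49 that did not pass.

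Of 13 other receptor and JAK-STAT genes, 4 fell (30.8%, where 6.64% of all genes fell) and 0 rose. Of their differences 7 were negative and 6 positive, with a median of -0.07. Il10rb, a chain of the receptors for interleukin-10 and interferon lambda, fell by 0.72 (limma adjusted p = 0.00725), and Jak1, the kinase common to type I and gamma receptors, fell by 0.59 (limma adjusted p = 0.00434). Jak1 stood at 9.52 and 9.57 in Y1KO, against 10.06, 10.22, 10.19 and 10.07 in WT. Ifngr1, the ligand-binding chain for interferon gamma, fell by 0.45 (limma adjusted p = 0.0278), and Ptpn11, a phosphatase, fell by 0.42 (limma adjusted p = 0.02). Jak2 and Tyk2, the kinases that partner Jak1 at the gamma and type I receptors, had positive differences of 0.43 and 0.22 that did not pass (limma adjusted p = 0.104 and 0.278). Both Y1KO arrays lay above every WT array in each, and they were named after their values were seen. Ifngr2 and Ifnlr1 had differences of -0.20 and 0.21 that did not pass (limma adjusted p = 0.235 and 0.206). The interferons themselves gave no call. Of 16 measured ligand genes 0 fell and 0 rose, 3 lay above the median level of all genes (Ifna5, Ifnz and Ifnl2), and 1 was lower and 0 were higher at an unadjusted p under 0.05. Ifnb1 stood at 3.61 and 3.87 in Y1KO and 3.84 to 3.99 in WT, and Ifng at 3.83 and 3.86 in Y1KO and 3.68 to 4.08 in WT, both near the 21st percentile of all genes. The differences of Ifna2, Ifna4, Ifna5, Ifna9, Ifna11, Ifna12, Ifna13, Ifna14, Ifna16, Ifnab, Ifne, Ifnk, Ifnz and Ifnl2 lay between -0.35 for Ifnl2 and 0.36 for Ifna12.

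Among the 5 sensors of foreign nucleic acid 1 fell (20%, where 6.64% of all genes fell). Zbp1, which binds Z-form nucleic acid, stood at 5.09 and 4.97 in Y1KO, against 5.46, 5.67, 5.96 and 5.36 in WT, and fell by 0.58 (SE 0.16, limma adjusted p = 0.0451), a call lost in 7 settings. Ifih1, the sensor of long double-stranded RNA, stood at 6.26 and 6.02 in Y1KO, against 6.30, 6.80, 7.09 and 6.76 in WT (-0.60, limma adjusted p = 0.0806). Eif2ak2, the RNA-dependent kinase that halts translation, stood at 6.36 and 6.21 in Y1KO, against 6.54, 6.97, 6.91 and 6.62 in WT (-0.48, limma adjusted p = 0.0566). In both the arrays did not overlap but the test was not passed. Rigi, which senses short RNA ends, and its relative Dhx58 overlapped between groups, with differences of -0.17 and -0.27 (limma adjusted p = 0.601 and 0.531).

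Of 16 measured antiviral effectors 4 fell (25%, where 6.64% of all genes fell) and 0 rose. Samhd1, which removes the nucleotides that reverse transcription needs, stood at 9.23 and 8.99 in Y1KO, against 9.87, 10.10, 10.31 and 9.94 in WT. It fell 1.93-fold, by 0.95 on the log2 scale (SE 0.14, limma adjusted p = 0.00337). Bst2, also called tetherin, which holds budding virions at the membrane, stood at 7.39 and 7.21 in Y1KO, against 7.78, 8.22, 8.73 and 8.06 in WT, and fell by 0.90 (SE 0.22, limma adjusted p = 0.0309). Ifit2, an RNA-binding effector, stood at 4.86 and 4.47 in Y1KO, against 5.43, 5.90, 5.75 and 5.26 in WT, and fell by 0.92 (SE 0.19, limma adjusted p = 0.0136). Gbp3, a guanylate-binding protein gene, had the largest decrease of the 17 but also a wide WT spread. It stood at 5.41 and 5.07 in Y1KO, against 5.88, 6.40, 7.22 and 6.15 in WT, and fell by 1.17 (SE 0.31, limma adjusted p = 0.0414). Its call was lost when either Y1KO array, WT replicate 2 or WT replicate 4 was left out, and under both changes of the variance model.

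Ifit1 and Ifit3, relatives of Ifit2 on the same chromosome, did not pass. Ifit1 stood at 5.74 and 4.83 in Y1KO, against 5.04, 6.38, 6.42 and 5.55 in WT, and the groups overlapped (-0.57, SE 0.40, limma adjusted p = 0.468). Ifit3, whose probes may also bind its close copy Ifit3b, stood at 4.28 and 3.86 in Y1KO, against 4.34, 4.88, 5.50 and 4.42 in WT (-0.72, limma adjusted p = 0.174). The oligoadenylate synthetase genes, whose products activate an RNA-cleaving enzyme, gave no call. Oasl2 had a difference of -0.81 (limma adjusted p = 0.143), Oasl1 -0.10, Oas1a -0.08 and Oas2 0.25 (limma adjusted p = 0.162). Oas2 was the gene with both Y1KO arrays above every WT array, at 4.87 and 4.86 in Y1KO, against 4.59, 4.69, 4.46 and 4.72 in WT. Mx1, Mx2 and Cmpk2 lay below the 20th percentile of all genes and differed by -0.01, -0.04 and 0.01, with the sign of Mx1 turned by centring the arrays and that of Cmpk2 by quantile normalization. Rsad2, the viperin gene, was high in a single Y1KO array, at 5.53 and 4.60 in Y1KO and 4.50, 4.94, 4.52 and 4.85 in WT (0.36, limma adjusted p = 0.43). Isg20, an exonuclease gene, had a difference of 0.34 (limma adjusted p = 0.159). Ifitm3, which blocks viral entry at membranes, was bright and overlapped, at 11.46 and 11.19 in Y1KO and 11.42, 11.58, 11.69 and 11.31 in WT (-0.18, limma adjusted p = 0.486).

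Genes of ISG15 conjugation, ubiquitin ligation and ADP-ribosylation had negative differences in all 7 measured cases. Of them 3 fell (42.9%, where 6.64% of all genes fell). Herc6, the ligase that attaches ISG15 in the mouse, stood at 4.96 and 4.78 in Y1KO, against 5.71, 6.23, 6.02 and 5.45 in WT. It fell 1.98-fold, by 0.98 on the log2 scale (SE 0.20, limma adjusted p = 0.0124). Parp14, an ADP-ribosyltransferase, stood at 5.48 and 5.61 in Y1KO, against 6.14, 7.01, 7.13 and 6.43 in WT, and fell by 1.13 (SE 0.25, limma adjusted p = 0.0205). Parp9 stood at 6.64 and 6.31 in Y1KO, against 7.00, 7.39, 7.38 and 7.02 in WT, and fell by 0.72 (SE 0.15, limma adjusted p = 0.0164). Its partner ligase Dtx3l, with which it forms a complex, stood at 6.22 and 5.68 in Y1KO, against 6.35, 6.73, 6.54 and 6.32 in WT, and did not pass (-0.53, limma adjusted p = 0.0774). Trim25, a ligase that acts on Rigi, and Parp12 also had arrays that did not overlap, with differences of -0.36 and -0.29 (limma adjusted p = 0.0771 and 0.0953). Usp18, the protease that removes ISG15 and damps receptor signalling, overlapped, at 6.09 and 5.21 in Y1KO and 5.55, 6.36, 6.05 and 5.81 in WT (-0.29, limma adjusted p = 0.594).

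Of the 5 other interferon-stimulated genes 1 fell (20%, where 6.64% of all genes fell). Ifi35 stood at 6.65 and 6.47 in Y1KO, against 6.96, 7.17, 7.24 and 6.97 in WT, and fell by 0.53 (SE 0.11, limma adjusted p = 0.0176). Rtp4 had the largest difference of all 50 genes, -1.25, and did not pass (SE 0.43, limma adjusted p = 0.105). It stood at 5.97 and 4.95 in Y1KO, against 6.0, 6.90, 7.64 and 6.30 in WT, so that the spread within each genotype was about as wide as the difference. Cxcl10, a chemokine for T cells, was high in a single WT array, at 5.43 and 5.11 in Y1KO and 5.84, 5.84, 7.44 and 5.14 in WT (-0.80, limma adjusted p = 0.408). Xaf1 and Ifi27l2a had differences of -0.52 and -0.02 that did not pass, the second with its sign turned by centring the arrays.

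Outside the list, further genes that interferon induces were measured in the same fit. Of 50 other measured interferon-stimulated genes, 13 fell and 1 rose (26% and 2%, where 6.64% and 6.1% of all genes did), with a median of -0.40. Slfn5, a schlafen family gene, stood at 5.60 and 5.20 in Y1KO, against 7.02, 7.46, 7.82 and 7.27 in WT. It fell 3.98-fold, by 1.99 on the log2 scale (SE 0.21, limma adjusted p = 0.000966), more than any of the 17. Slfn9 of the same family, whose probes may also bind close relatives, fell by 0.97, the galectin gene Lgals9 by 0.63 and Pml, which builds nuclear bodies, by 0.67 (limma adjusted p = 0.00304, 0.0029 and 0.00756). Uba7 and Ube2l6, the activating and conjugating enzymes that load ISG15 ahead of Herc6, fell by 0.44 and 1.00 (limma adjusted p = 0.0304 and 0.00871) and were named after their values were seen. Ifitm1, the gene that rose, stood at 6.27 and 6.21 in Y1KO, against 5.60, 5.15, 5.68 and 5.45 in WT (0.77, limma adjusted p = 0.00932).

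The arrays of each genotype also differed among themselves in these genes. In 34 of the 50 genes WT replicates 2 and 3 both lay above WT replicates 1 and 4, an order held by 14% of all genes. This order was seen in the values and then counted. Relative to the WT mean, the mean of the 50 genes was -0.35 and -0.57 in the Y1KO arrays and -0.19, 0.12, 0.22 and -0.14 in the WT arrays, so the groups did not overlap, with Y1KO replicate 1 next to WT replicate 1. Over the 17 genes that fell, the same mean was -0.73 and -0.84 in the Y1KO arrays and -0.17, 0.08, 0.23 and -0.14 in the WT arrays, as the calls chose them. Over the 33 that were not called it was -0.16 and -0.42 in the Y1KO arrays and -0.20, 0.14, 0.21 and -0.15 in the WT arrays, and there Y1KO replicate 1 lay within the WT range. Y1KO replicate 2 was the lowest of the 6 arrays in 31 of the 50 genes. The Y1KO arrays differed by more than 0.5 in 8 of the 50 genes, Ifit1, Oasl2, Mx2, Rsad2, Usp18, Dtx3l, Xaf1 and Rtp4, against 1.92% of all genes, and none of the 8 was called. The median SD of the 50 genes was 0.153 in Y1KO and 0.212 in WT, against 0.0784 and 0.125 over all genes. The map of values by array shows this beside the peptide-loading block, where the SD of the WT arrays was 0.03 for Tap2, 0.06 for Tapbp, 0.10 for Tap1 and 0.15 for B2m.

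**Figure D4:**
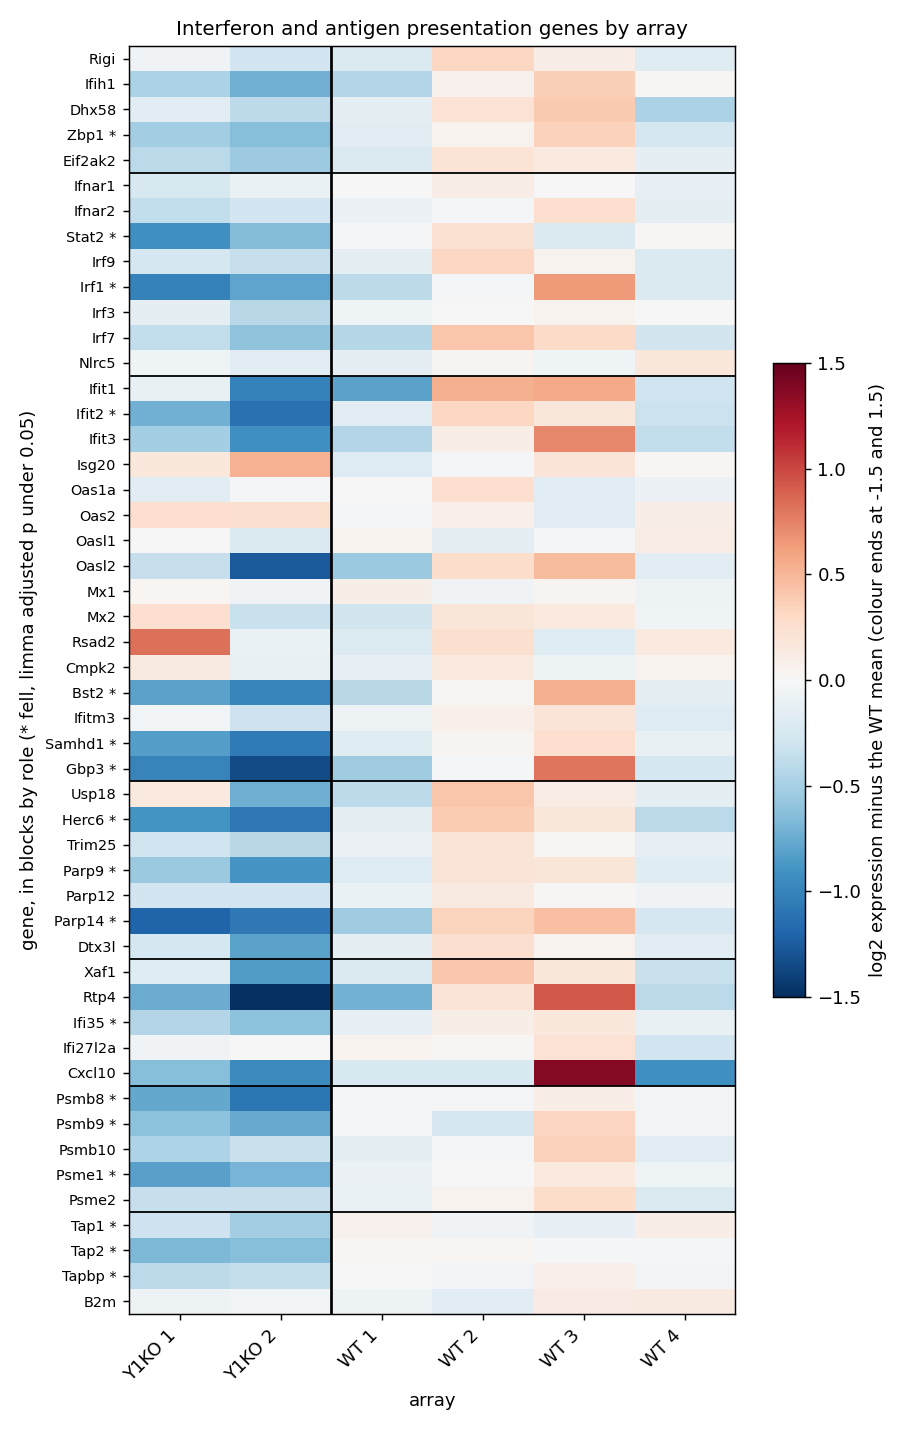
Log2 expression of the 50 measured genes minus their WT mean in each array (columns, Y1KO left of WT), in blocks by role. Blue is below and red above the WT mean, and an asterisk marks the 17 genes that fell. WT replicates 2 and 3 are redder than WT replicates 1 and 4 in most rows outside the peptide-loading block.

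Markers of macrophages and of smooth muscle and pericytes moved in the same arrays. Those of osteoblasts were all higher, but 1 of 8 was called. Over all genes 6.64% fell and 6.1% rose. Of 14 macrophage markers 8 rose and 0 fell, and their mean log2 level was 5.59 and 5.96 in the Y1KO arrays and 5.25 to 5.45 in the WT arrays. Adgre1, Laptm5, Csf1r and Lyz2 rose by 0.81, 0.61, 0.57 and 0.97 (limma adjusted p = 0.00448, 0.0203, 0.0236 and 0.0237). The 6 markers without a call, Ptprc, Fcgr1, Cx3cr1, Itgam, Cd14 and Fcer1g, differed by 0.15, 0.07, 0.01, 0.00, -0.07 and -0.11. They were added to the text with these values known. Over the 14 macrophage markers 11 differences were positive and 3 negative. Of 7 measured class II presentation genes, which macrophages and other presenting cells use, 2 rose and 0 fell. Ctss, a lysosomal protease, rose by 0.88 (limma adjusted p = 0.0033) and H2-Ab1 rose by 0.73 (limma adjusted p = 0.0483), while Cd74 and H2-Aa, named after their values were seen, lay below the 22nd percentile of all genes. Of 12 smooth muscle and pericyte markers 9 fell and 1 rose, with a mean level of 7.98 and 7.87 in the Y1KO arrays and 8.72 to 9.03 in the WT arrays. Myl9, Mylk, Actg2 and Pdgfrb fell by 1.60, 1.32, 1.93 and 1.60 (limma adjusted p = 0.000276, 0.000276, 0.000286 and 0.000486). Cspg4 was the marker that rose, by 1.16 (limma adjusted p = 0.0123), and Des had a difference of 0.52 that did not pass (limma adjusted p = 0.0772). Cspg4 and Des were named after their values were seen. Of 8 osteoblast markers 1 rose, Ifitm5, a membrane protein gene of mineralising cells (1.66, limma adjusted p = 0.0341). All 8 differences were positive, with a median of 0.45. Both Y1KO arrays lay above every WT array in 7 of the 8, against 17.5% of all genes. The mean level of the 8 was 11.75 and 11.86 in the Y1KO arrays and 10.34 to 11.41 in the WT arrays. Dmp1, a matrix protein gene of osteocytes, had a difference of 1.66 that did not pass (limma adjusted p = 0.0789) and was named after its value was seen. Of 9 lymphocyte markers 1 rose (11.1%, where 6.1% of all genes rose) and 8 were not called. The 1 was Cd4 (0.37, limma adjusted p = 0.0417), a dim gene at the 19th percentile of all genes. The part of these markers' cells in the interferon and class I decreases was not tested.

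**Figure D5:**
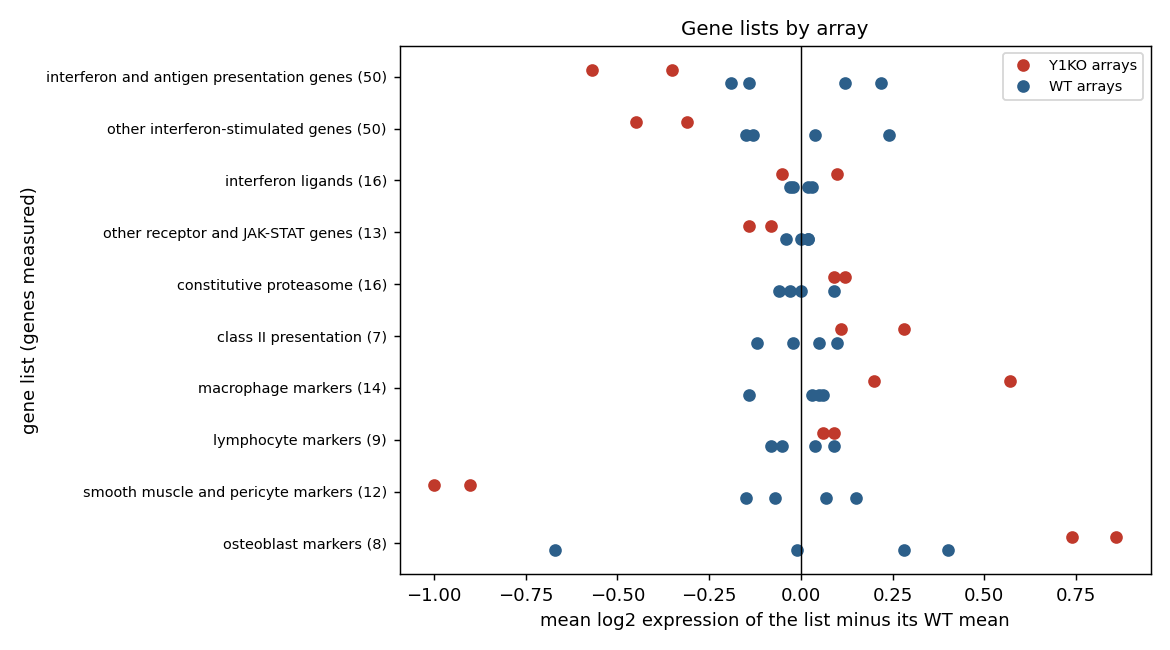
Mean log2 expression of each gene list minus its WT mean, for the Y1KO arrays (red) and the WT arrays (blue), with the number of genes measured in parentheses. The interferon and antigen presentation genes and the other interferon-stimulated genes are lower in both Y1KO arrays, the macrophage markers are higher, and the interferon ligands overlap.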

How the data were processed

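Expression was measured on 6 single-channel arrays, 2 Y1KO and 4 WT, grouped by their titles. The deposited values are log2 expression per probe set, and the submitters' processing notes name RMA and limma without version, setting or order. The sources used here give no build for the array annotation. Of 28815 probe sets, 21780 had 1 gene symbol, 1605 several and 5430 none listed. The brightest of a gene's probe sets stood for it, which left 19935 genes, and Rigi was found under its older symbol Ddx58. The values were used as deposited. Precision is limited by the 6 arrays.

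Y1KO was compared with WT by limma (version 3.58.1, run in R 4.3.3) with lmFit, eBayes and genotype as the only term, two-sided, with Benjamini-Hochberg adjustment over all genes and a threshold of 0.05. The fit was tested on simulated data. SE and 95% intervals come from the model. Rose and fell are used of called genes only. The genes, lists and alternatives were chosen with earlier results of these data known. Named were all measured genes of the list, the interferon ligands and receptor chains, and up to 4 called genes of smallest p per other list. Alternatives covered normalization, centring, filters on dim genes, probe sets, variance models, a replicate block and leaving out each array. Motifs were counted in RefSeq promoters of build GRCm38.p6, whose coordinates are those of that table.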

Additional observations from a re-analysis of the deposited data

Results flagged for a closer look

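Psmb8 in WT was the only one of the 50 genes in which 1 WT array stood apart from the other 3 by Dixon's test. WT replicate 3 read 8.44 and the others 8.29 to 8.31, a gap of 0.848 of the whole range, past the 95% critical value. Chance gives such a gap in about 1 of 20 groups. As 50 genes were searched, 1 such gene is no more than chance would give. The Y1KO arrays, at 7.57 and 7.25, lay below all 4, and Psmb8 kept its call without WT replicate 3.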

How the results depend on the processing

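Without moderation of the variance 1 of the 50 genes fell, Tap2. In that setting 344 genes were called in all, and 1.02% of all genes fell. When 1 array was left out, between 4 and 17 genes fell. The other settings gave 14 to 18, and 0 genes rose in any setting. The median difference lay between -0.58 and -0.35 when 1 array was left out. With the replicate block, 15 genes fell and the median was -0.42. In that setting the difference rested on the same-numbered arrays alone, since WT arrays without a Y1KO array of their number add nothing to it. Ifi35, Tap1 and Tapbp lost their calls there and Cxcl10 gained one. The labels share numbers between genotypes without saying that they pair mice, and deviations of same-numbered arrays correlated at 0.0127 and -0.204. The deviations of the Y1KO arrays from their own mean mirror each other, so these correlations do not settle whether the numbers pair mice. The filters at the 40th and 60th percentiles tested 43 and 29 of the 50 genes, and 18 and 15 of these fell. Of all genes kept by those filters 12.2% and 14.6% fell, against 6.64% without a filter. Only genes that were not called changed sign. With centred arrays Mx1 and Ifi27l2a each read 0.01, with quantile normalization Cmpk2 read -0.01, and with the replicate block Cmpk2 read 0.00 and B2m 0.06. Leaving out 1 array gave ranges that crossed or reached 0, from -0.05 to 0.03 for Mx1, -0.33 to 0.25 for Mx2, -0.11 to 0.13 for Cmpk2, -0.11 to 0.05 for Ifi27l2a, -0.15 to 0.00 for Oas1a, -0.21 to 0.00 for Oasl1, -0.10 to 0.83 for Rsad2 and -0.73 to 0.15 for Usp18. Beyond what these settings show of arrays and variance, the cause of these changes was not tested.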

Other observations

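Of 16 measured genes that lead to interferon production, 1 fell and 1 rose (6.25% in each direction), a share near that of all genes (6.64% fell and 6.1% rose). Myd88, the adaptor of most Toll-like receptors, stood at 8.26 and 8.34 in Y1KO, against 8.70, 8.76, 8.72 and 8.50 in WT, and fell by 0.37 (limma adjusted p = 0.0447). Ticam1, the adaptor of Tlr3, stood at 6.86 and 6.84 in Y1KO, against 6.50, 6.38, 6.57 and 6.54 in WT, and rose by 0.36 (limma adjusted p = 0.0348). Sting1, named after its value was seen, had a difference of -0.62 that did not pass (limma adjusted p = 0.0505).

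Markers of granulocytes, dendritic cells and endothelium gave no call. By limma, 0 of 8 granulocyte, 0 of 7 dendritic cell and 0 of 8 endothelial markers rose or fell. At an unadjusted p under 0.05, 2 granulocyte and 2 dendritic cell markers were higher and 1 dendritic cell marker was lower in Y1KO. Their mean log2 levels were 3.96 and 4.07 in Y1KO and 3.91 to 3.98 in WT for granulocytes, 4.17 and 4.19 in Y1KO and 4.04 to 4.18 in WT for dendritic cells, and 4.47 and 4.53 in Y1KO and 4.40 to 4.62 in WT for endothelium.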
